A study of Acartia tonsa with 26 samples.

Results

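Among the genes that the authors deposited for eggs of the copepod Acartia tonsa, 49 of 9590 carried an ankyrin repeat field in their assembly identifier. A gene was taken as a member when 1 of the fields joined by the ^ sign was Ank or started with Ank_. This gave 50 genes, of which 1 with an ion channel field (Ion_trans) was left out. No gene had to be left out for a transcription factor field. RNA-seq was made on batches of whole eggs of 6 groups. The first group was of quiescent eggs, held at 4 °C without oxygen and sampled at 26 h (libraries A, C and D, n = 3). The other eggs were subitaneous, that is, they developed without a pause under the culture conditions of the adults (dark, 16.9 °C, salinity 32). They were taken during cleavage at 3 h (5 libraries), during gastrulation at 7 h (5), during organogenesis at 14 h (4), as appendages formed at 24 h (4) and shortly before hatching at 42 h (5). The labels call the replicates technical, so the p-values below measure the spread between such libraries and not that between cultures. Every gene had been selected by the authors as differing among these samples, with alpha set to 0.001 and a minimum 2-fold change, so a change found here is not independent evidence of change.

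The ankyrin repeat is a short helical motif that occurs in tandem and stacks into a curved surface that binds other proteins. Proteins built from it have no common function. They include inhibitors that hold transcription factors in the cytoplasm, scaffolds of signalling and of the membrane skeleton, subunits that pick substrates for ubiquitin ligases, tankyrases, and sensory channels of the TRP family. Long arrays also occur in proteins of intracellular bacteria and of giant viruses, so the best match of an array in a database need not name a true counterpart.

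All 49 genes are known here by the identifiers of the assembly, which name a best protein match and its domains but do not identify the gene. The first match was an animal protein for 38 genes, a bacterial or archaeal protein for 5 and a virus protein for 5, and 1 gene had no match. The most frequent proteins among all matches were ANR50 (ankyrin repeat domain protein 50, 8 genes), the mimivirus protein YL093 (7 genes) and the Rickettsia protein Y381 (7 genes). Mask of Drosophila, listed as ANKHM and known there as a cofactor in growth signalling, was among the matches of 4 genes. Ank_2 was the commonest field, in 37 genes. Only DN30618_c0_g1 carried another domain field beside its ankyrin field, a SAM domain, so the part of a kinase, channel or ligase that a match would have outside the repeats was not annotated in these genes. A signal peptide mark stood in 7 identifiers. The genes fell into 39 clusters of the assembly, with 6 genes in cluster DN16633, 3 in DN12880 and 2 each in DN15649, DN30880 and DN3326. Genes of 1 cluster can be pieces or close copies of each other and may share reads, so the counts of genes below stand beside the number of clusters they lie in.

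The deposited values keep whole reads, and a value of 1 stands for 81.8 to 112 reads depending on the library. The genes of the tables held 4.32e+06 to 2.42e+07 reads in a library. Values of different genes cannot be set against each other as amounts of RNA, because no gene length was given. The sums over genes, the shares of those sums and the choice of genes by mean below therefore weigh genes by reads, and long genes can count for more. The 42 h D library stood apart. Its rank correlation with the mean of its group over all genes was 0.476, where the other libraries had 0.820 or more. It also had the lowest summed level among 42 h libraries of muscle genes, 86.8 against 376 to 1533 in the other 4. For comparison, that sum was 201 to 315 at 3 h and 973 to 1589 at 24 h. Its summed level of genes with a plant, alga, fungus or protist protein as first match was 7134, against 2737 to 4585 in the other 42 h libraries and 6072 to 9646 at 3 h. The part of these differences in the ankyrin values was not tested. Counts and changes at 42 h are therefore also given without it. The sample-sheet numbers in the labels repeat between libraries A and B and libraries C, D and E, so each comparison was also fitted within these 2 sets. The set of A and B held 1 quiescent library, whose spread was taken to be that of the other groups.

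The typical course of an ankyrin repeat gene was a low level at 7 h, a high one at 14 h, a low one at 24 h and a high one at 42 h. The 5 stage means went down, up, down and up in 32 of the 49 genes (65.3%, in 22 clusters), and in 39.3% of all 9590 genes. The highest of the 6 group means was at 42 h in 23 genes of 20 clusters (46.9%, against 69.5% of all genes) and at 14 h in 18 genes of 12 clusters (36.7%, against 11.0%), which included all 6 genes of DN16633. Without 42 h D these counts were 26 genes of 23 clusters (53.1%, against 72.9%) and 16 of 10 clusters (32.7%, against 9.80%). With it, the highest mean was at 3 h in 4 genes, at 24 h in 4, and at 7 h or in quiescent eggs in none. The lowest mean was at 7 h in 27 genes of 21 clusters (55.1%, against 43.2% of all genes). Quiescent eggs had a mean between those of 7 h and 14 h in 32 genes of 22 clusters (65.3%, against 54.0% of all genes). In all, 24 of the 49 genes, of 17 clusters, were in the table of genes selected for the quiescent eggs (48.98%, against 28.96% of all genes). These counts describe means and were not tested.

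**Figure D1:**
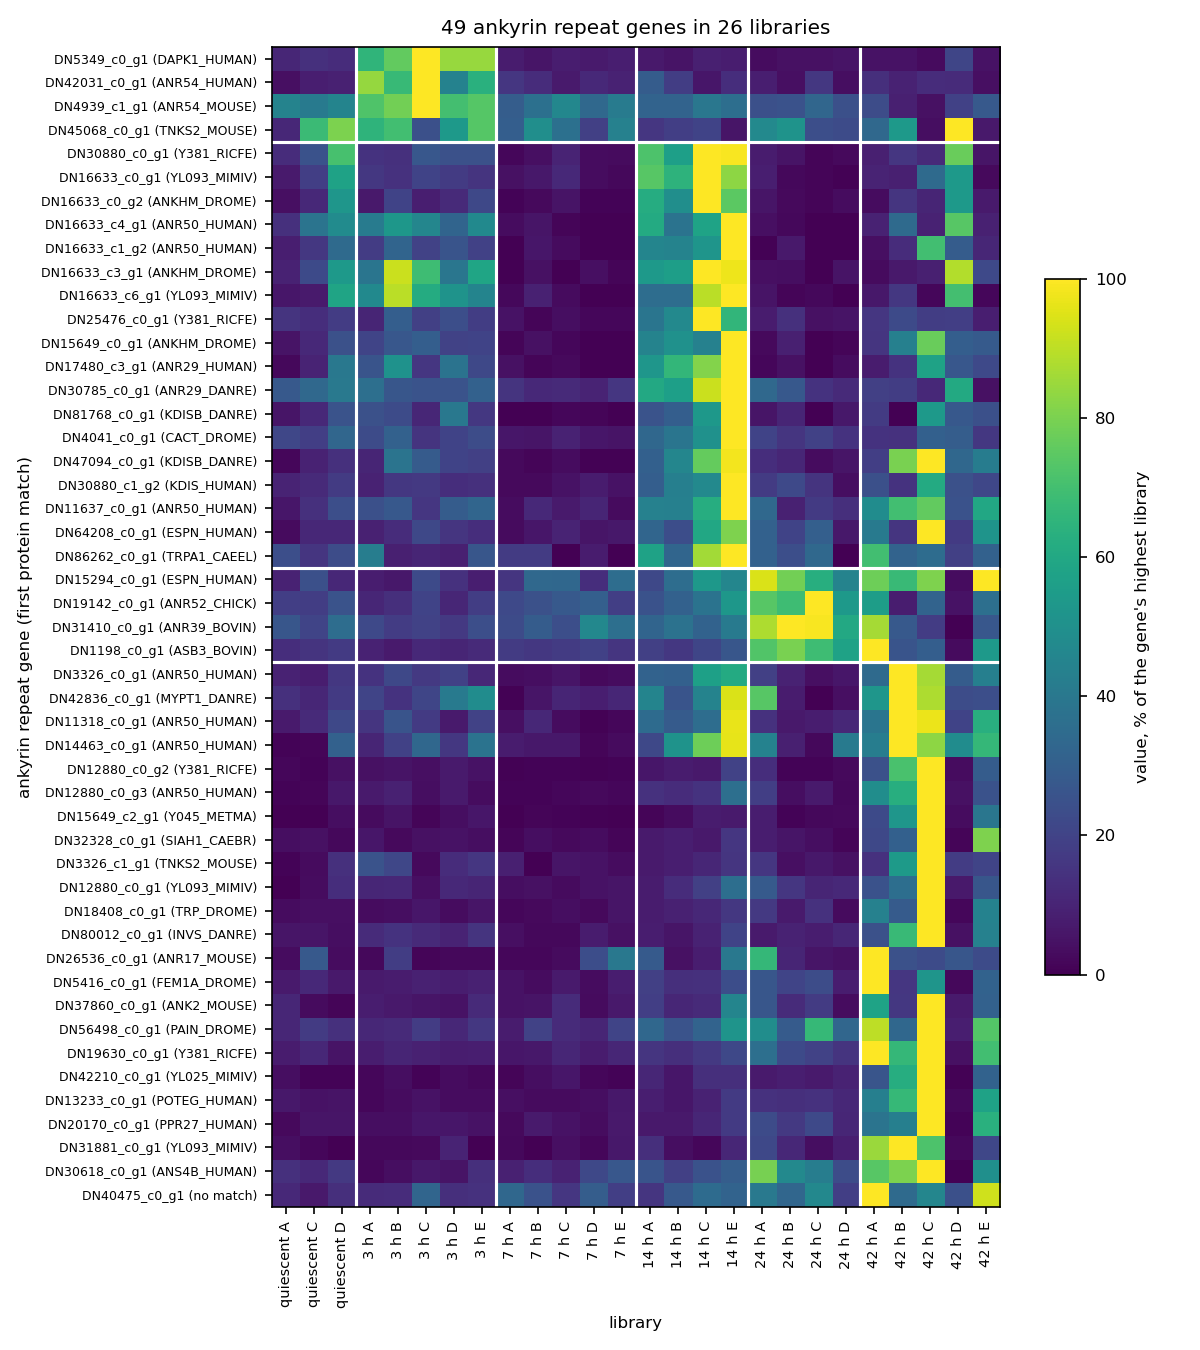
Deposited value of each of the 49 ankyrin repeat genes (rows, with the first protein match) in each of the 26 libraries (columns), as a percentage of the gene's highest library; white lines separate the 6 groups and, down the page, the genes by the group with their highest mean (3 h, 14 h, 24 h, 42 h). The block of 18 genes with the highest mean at 14 h is near 0 at 7 h and 24 h for most genes, and its upper part is also bright in quiescent D and 42 h D.

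Genes grouped as repeat arrays by their first match came to 29, of which 18 reached a value of 1 in 3 or more libraries and were tested. The group took in first matches to Mask, a cofactor in growth signalling, and to ANR54, which binds a kinase, so it was not free of signalling proteins. DN30880_c0_g1, with the Rickettsia array as first match, had values of 6.27, 12.4 and 35.0 in quiescent eggs A, C and D. It had 7.27, 6.76, 13.4, 12.2 and 12.2 at 3 h and 0.847, 1.99, 4.86, 1.59 and 1.5 at 7 h. All 3 quiescent libraries thus lay above all 7 h libraries, and quiescent D reached the range of 14 h. The values at 14 h were 35.5, 27.9, 49.3 and 48.8, and those at 24 h were 3.69, 2.66, 0.697 and 1.33. At 42 h the values were 4.31, 7.86, 5.93, 38.0 and 2.83 in libraries A to E. The 14 h libraries overlapped with no other stage except through 42 h D. On the log2(value + 1) scale, the scale of every log2 change below, it changed by 3.79 ± 0.54 (standard error) at 14 h against 7 h (limma, adjusted p = 8.78e-06) and by -3.81 ± 0.56 at 24 h against 14 h (limma, adjusted p = 3.47e-05). The added 1 shrinks the changes of genes with low values, so an order of genes by log2 change depends in part on their level.

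The 6 genes of cluster DN16633 ran a similar course. Their first matches were the mimivirus array for 2, Mask for 2 and ANR50 for 2. DN16633_c0_g1 had 2.43, 6.38 and 19.6 in quiescent eggs. It had 4.84 to 6.80 at 3 h, 1.57, 2.22, 3.87, 1.07 and 0.701 at 7 h, and 25.2, 22.0, 34.1 and 28.4 at 14 h. Later it had 0.202 to 2.81 at 24 h and 3.39, 2.96, 11.7, 18.4 and 0.868 at 42 h. The 14 h libraries lay above every other library of the series. Its log2 change was 3.38 ± 0.54 at 14 h against 7 h (limma, adjusted p = 4.20e-05) and -3.91 ± 0.57 at 24 h against 14 h (limma, adjusted p = 3.05e-05), the largest fall of the set between those stages on this scale. As a ratio of means it fell to 0.0392, and the largest called fall was to 0.0242, in a gene with 0 to 10 reads in a 24 h library. DN16633_c0_g2 had 0.10 to 0.612 at 7 h, 7.39, 5.92, 12.0 and 8.94 at 14 h and 0.165 to 0.682 at 24 h, so that 14 h overlapped with neither neighbour. The other 4 genes of the cluster rose by 1.03 to 2.73 at 14 h against 7 h. Over the 26 libraries the 15 pairs of genes in this cluster had rank correlations between 0.752 and 0.907, with a median of 0.868, which describes libraries of shared groups and possibly shared reads.

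DN30880_c0_g1 is in another cluster, and the members most like it by rank correlation over the 26 libraries were the 6 genes of DN16633, at 0.844 to 0.935. DN25476_c0_g1, also a match to the Rickettsia array, followed at 0.842. DN15649_c0_g1 (Mask) and DN17480_c3_g1 (ANR29) both had 0.804. The lowest was DN1198_c0_g1, at -0.405.

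DN17480_c3_g1 had 0.327, 1.40 and 5.69 in quiescent eggs. It had 2.27 to 7.27 at 3 h, 0.638, 0.215, 0.359, 0 and 0 at 7 h, and 7.47, 9.40, 11.6 and 14.2 at 14 h. Its later values were 0 to 0.647 at 24 h and 1.06 to 8.20 at 42 h. Every 14 h library was above every 3 h, 7 h and 24 h library. The log2 change at 14 h against 7 h was 3.22 ± 0.41, with the smallest p among the members in that comparison (limma, adjusted p = 2.19e-06). A different balance was seen in DN3326_c0_g1 and DN11318_c0_g1, both with ANR50 as first match, a protein that helps to return cargo from endosomes to the cell surface in human cells. DN3326_c0_g1 had 1.61, 1.35 and 2.71 in quiescent eggs. It had 1.90 to 3.68 at 3 h, 0.412 to 0.950 at 7 h, 5.30, 5.15, 9.57 and 10.3 at 14 h, 3.19, 1.65, 0.687 and 1.03 at 24 h, and 5.84, 16.9, 14.6, 4.88 and 7.27 at 42 h. The values at 14 h and 42 h overlapped, and both lay above those of the other 3 stages. DN11318_c0_g1 had a similar order, with 3.24 to 10.9 at 14 h, 0.785 to 1.61 at 24 h and 2.25 to 11.2 at 42 h. In both genes 42 h D had the lowest value of the 42 h libraries (4.88 and 2.25), where in DN30880_c0_g1 it had the highest.

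**Figure D2:**
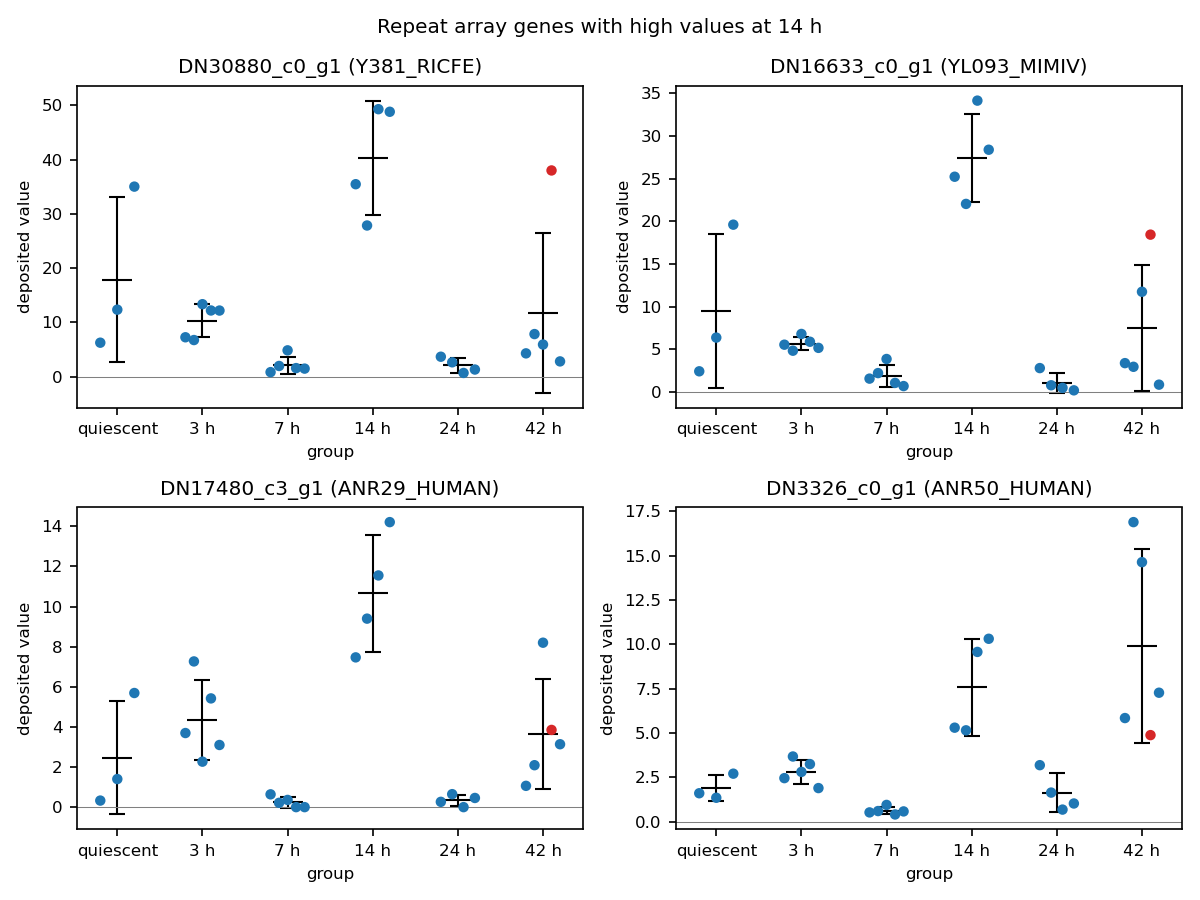
Deposited values of 4 repeat array genes by library (points) in the 6 groups, with the mean and SD as bars; the 42 h D library is red. In each panel the 14 h libraries are above those of 7 h and 24 h, and 42 h D is the highest 42 h library in the 2 upper panels only.

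Summed over the 49 genes, the level was 24.4, 42.3 and 98.0 in quiescent eggs A, C and D. It was 52.0 to 66.4 at 3 h, 12.9 to 23.3 at 7 h, 105 to 188 at 14 h, 23.0 to 47.9 at 24 h and 63.2 to 131 at 42 h. No library of 7 h reached a library of 3 h or 14 h, and no 24 h library reached one of 14 h or 42 h. The 3 quiescent libraries spread over a 4.01-fold range, wider than in any stage. The summed level of 62 genes with a trypsin domain, listed as a mark of gut, moved with this sum: 37.4 to 60.8 in quiescent eggs, 55.5 to 79.7 at 3 h, 10.3 to 36.8 at 7 h, 223 to 578 at 14 h, 41.6 to 158 at 24 h and 90.2 to 1832 at 42 h. In cleavage eggs at 3 h, before organogenesis, the trypsin sum was above that of 7 h, so it was not a mark of gut alone. Its part in the ankyrin result was not tested. Quiescent D had the highest of the 3 quiescent libraries in the ankyrin sum (98.0) and the trypsin sum (60.8). The 42 h D library had 101 for ankyrin repeats and 90.2 for trypsin, the lowest trypsin sum at 42 h. The sums take in every gene of a cluster. The 6 genes of DN16633 and DN30880_c0_g1 together made up 69.9% of the ankyrin sum in quiescent D and 70.5% in 42 h D, against 44.4% and 55.7% in quiescent A and C and 10.5% to 21.2% in the other 42 h libraries. At 14 h their share was 55.7% to 65.2%. Summed over the other 42 genes, 42 h D had 29.9, the lowest of the 42 h libraries, and the other 4 had 56.5 to 103. Over the same 42 genes quiescent A, C and D had 13.6, 18.8 and 29.5, a narrower fold range than at 42 h. In whole eggs, fewer cells of a type and less RNA per cell cannot be told apart.

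**Figure D3:**
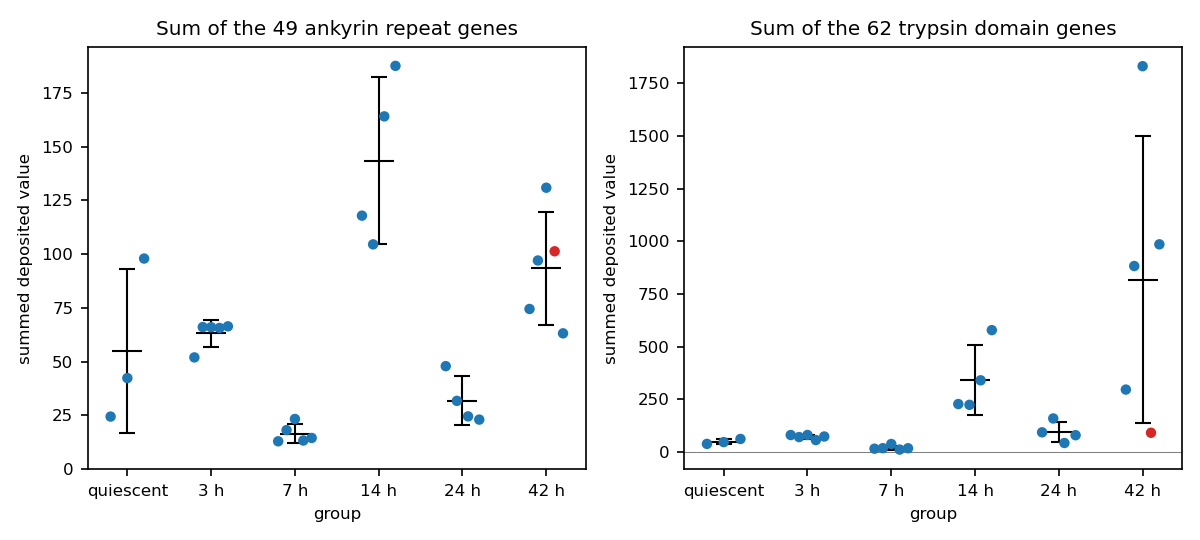
Summed deposited values by library (points) in the 6 groups, with the mean and SD as bars, for the 49 ankyrin repeat genes (left) and the 62 trypsin domain genes (right); the 42 h D library is red. Both sums are high at 14 h and 42 h and low at 7 h and 24 h, but in 42 h D the ankyrin sum is inside its group's range and the trypsin sum is the lowest of its group.

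At 7 h against 3 h, 11 of the 25 genes tested (in 19 clusters) fell and none rose. The falling genes lay in 8 clusters, with log2 changes of -0.72 to -2.65 (limma, adjusted p under 0.05 over all 5258 genes tested), and of the 14 not called 3 had positive changes. Among all genes tested, 11.0% fell and 0.0951% rose. The median log2 change was -0.91 for the 25 genes and -0.06 for all genes. The falls comprised 10 repeat arrays and the DAPK1 match DN5349_c0_g1 described below. Of the arrays, DN17480_c3_g1 changed by -2.05 ± 0.39 (limma, adjusted p = 0.000293) and DN30880_c0_g1 by -1.92 ± 0.50 (limma, adjusted p = 0.0092). All 11 had 7 h values below every 3 h value. In all 19 of the 25 had 7 h values below every 3 h value (23.2% of all genes) and 1, DN1198_c0_g1, had them above (3.75%). Without the filter on low values 13 of the 49 genes fell and 0 rose, against 7.39% and 0.0521% of all genes. Within libraries A and B 7 members fell (8.84% of all genes) and within C, D and E 2 did (4.60%), with the 11 falling genes lower at 7 h in both sets.

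At 14 h against 7 h, 17 of the 25 genes rose and none fell. They lay in 12 clusters, 6 of them genes of DN16633, and rose by 0.77 to 3.79, where 21.0% of all genes tested rose and 2.45% fell. Of these 17 genes 14 were repeat arrays and 3 were matches to signalling proteins. All 17 had 14 h values above every 7 h value, as did 20 of the 25 (49.4% of all genes), and none had them below every 7 h value (5.33%). The median log2 change was 1.18 for the 25 genes and 0.41 for all genes, a difference of 0.77. Rescaling to equal median ratios moved the median of all genes by -0.34 and quantile normalization by -0.43, and the difference was then 0.83 and 0.92. The calls split into 17 rises and 2 falls under the first (22.4% and 11.1% of all genes) and 14 and 3 under the second (16.8% and 16.4%). Without the filter 22 of 49 rose and 0 fell, against 18.2% and 1.26% of all genes. Within libraries A and B 11 rose (13.9% of all genes), and within the others 16 did (9.17%). DN15649_c0_g1 and DN47094_c0_g1, which are among the 17, would not have passed the filter without their 14 h libraries, as was true of 4.15% of all genes tested, so the filter favoured a difference from 14 h in them.

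At 24 h against 14 h, 14 of the 25 genes fell, in 9 clusters and with all 6 genes of DN16633 among them, and 1 rose. The log2 changes of the falling genes were -0.77 to -3.91. They included DN15649_c0_g1 and DN47094_c0_g1, in which the filter favoured a difference from 14 h. Of all genes tested 9.55% fell and 2.80% rose. The median log2 change was -1.05 for the 25 genes and -0.04 for all genes. The falls were 12 of the 18 tested repeat arrays and 2 matches to signalling proteins, and all 14 had 24 h values below every 14 h value. In all 15 of the 25 did so (17.7% of all genes), and 2 had 24 h values above every 14 h value (13.1%). The gene that rose was DN1198_c0_g1, a match to a substrate subunit of ubiquitin ligases. Of the 49 genes, without the filter, 18 fell and 2 rose, against 9.24% and 2.03% of all genes. Within libraries A and B 8 fell (4.79% of all genes) and within the others 11 did (4.51%), and DN1198_c0_g1 was called in neither.

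At 42 h against 24 h, 16 of the 25 genes rose, in 13 clusters, by 0.56 to 1.99, and 1 fell, where 44.4% of all genes tested rose and 5.38% fell. The median log2 change was 0.96 for the 25 genes and 0.65 for all genes. Of the 16 genes, DN12880_c0_g2, DN12880_c0_g3, DN13233_c0_g1 and DN47094_c0_g1 would not have passed the filter without their 42 h libraries, as was true of 34.1% of all genes tested, so the filter favoured their rise. On the log2(value + 1) scale the largest rises were those of DN3326_c0_g1 (1.99 ± 0.34, limma, adjusted p = 0.000251) and DN11318_c0_g1 (1.79 ± 0.37, limma, adjusted p = 0.000662), followed by DN16633_c0_g1 (1.69 ± 0.54, limma, adjusted p = 0.0122). As a ratio of means these were 6.0-fold, 6.3-fold and 7.0-fold, where called members of lower level rose up to 17.6-fold. The gene with that largest ratio had 0 to 10 reads in a 24 h library. Its value was 1.63 in 42 h D and 0.202 to 0.758 in the other 42 h libraries. The highest 42 h library of DN16633_c0_g1 was also 42 h D. Without that library DN16633_c0_g1 changed by 1.27 (limma, adjusted p = 0.0269), less than DN17480_c3_g1 (1.58; 1.64 with it). DN3326_c0_g1 then changed by 2.18 and DN11318_c0_g1 by 2.08. Of the 25 genes 6 had 42 h values above every 24 h value (5.02% of all genes), and none had them below (1.69%). These 6 were among the 16 rises, and in the other rises the groups overlapped. The 42 h libraries were uneven: with the spread of the 2 groups compared alone no member and 3.08% of all genes were called (13 members had an unadjusted p under 0.05; edgeR called 12, beside 29.2% of all genes, and DESeq2 16, beside 38.3%). Within libraries A and B 7 members rose, beside 43.2% of all genes, and within the others 1 did, beside 0.399%. Median-ratio rescaling moved the median of all genes by -0.48 and gave 5 rises and 1 fall (24.8% and 13.4% of all genes). Under quantile normalization that median shifted by -0.58, with 3 rises and 2 falls (20.3% and 16.1%). Without 42 h D all 17 calls were rises, 16 of them genes also called with it, where 61.9% of all genes rose. Without the filter 24 of 49 rose and 3 fell, against 51.9% and 4.20% of all genes.

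**Figure D4:**
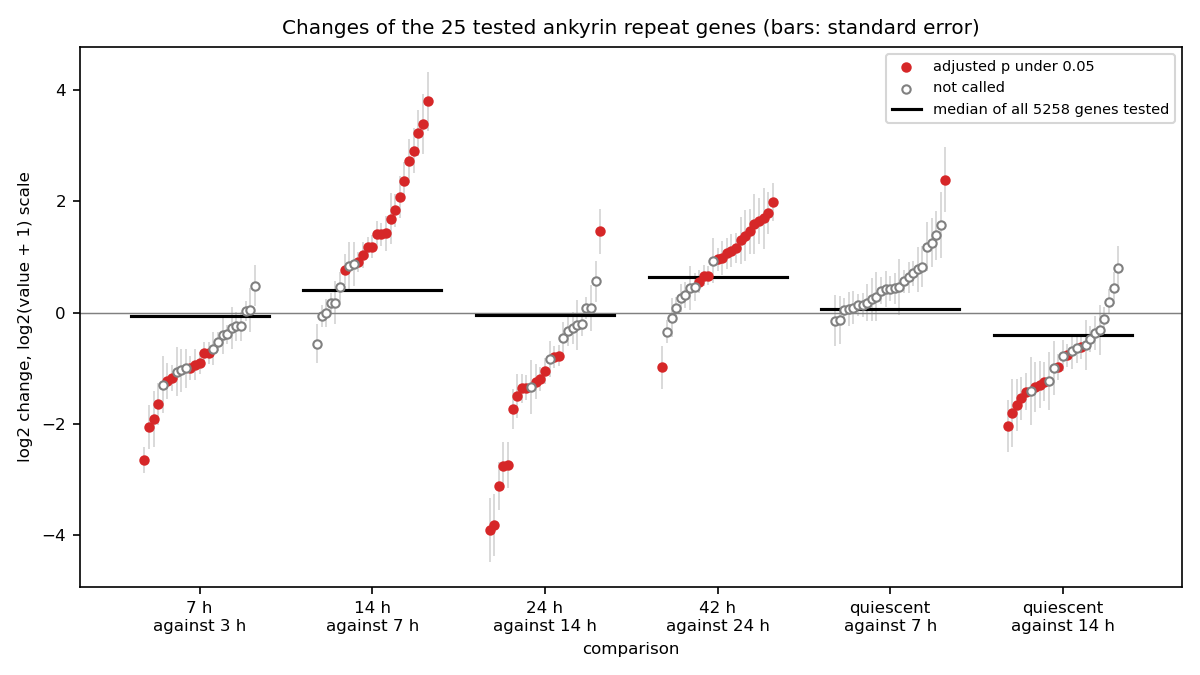
Log2 change, on the log2(value + 1) scale, of the 25 tested ankyrin repeat genes in the 6 comparisons, sorted within each, with standard errors as grey bars; filled points have an adjusted p under 0.05 and the black bar is the median of all 5258 genes tested. At 7 h and 24 h most points lie below the black bar, at 14 h most lie above it, and in quiescent eggs against 7 h only 1 point is filled.

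Quiescent eggs had been held at gastrulation and were set against 7 h eggs, which are at that stage, and against 14 h eggs. Against 7 h, 1 of the 25 genes was higher and none was lower, where 1.14% of all genes tested were higher and 0.0761% lower. The gene was DN30880_c0_g1, with a mean of 17.9 ± 15.2 in quiescent eggs (SD, n = 3) and 2.16 ± 1.57 in 7 h eggs (SD, n = 5). Its log2 change was 2.38 ± 0.58 (limma, adjusted p = 0.0381). Leaving out 42 h C gave 2 calls (1.56% of all genes were then higher) and leaving out 42 h D gave 3 (4.91%). The call of DN30880_c0_g1 ended without quiescent D (limma, adjusted p = 0.521), quiescent C, 7 h A, B, D or E, or 3 h A, D or E. It was not called by edgeR (adjusted p = 0.136), which called 0 members and 4.62% of all genes, or by DESeq2 (adjusted p = 0.0539), which called 4 others and 8.92% of all genes. Within either set of libraries 0 of the 5258 genes were called, so those fits say nothing of this gene. Another 8 of the 25 genes had an unadjusted p under 0.05, and the median log2 change was 0.43 for the 25 genes and 0.07 for all genes. In 9 genes every quiescent value lay above every 7 h value (18.2% of all genes), and in none below (5.10%). Of the DN16633 genes, DN16633_c0_g1 had quiescent values that overlapped with those of 7 h (log2 change 1.58 ± 0.59; limma, adjusted p = 0.32). Without the filter 0 of 49 genes were called (10 had an unadjusted p under 0.05), where 0.553% of all genes were higher and 0.0417% lower. In 5 of the 6 genes of cluster DN16633 quiescent D had the highest value of the 3 quiescent libraries by at least 1.5-fold.

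Against 14 h, 11 of the 25 genes were lower in quiescent eggs, in 9 clusters, with log2 changes of -0.61 to -2.04, and none was higher. Of all genes tested 12.2% were lower and 5.63% higher. The falls were 9 repeat arrays and 2 matches to signalling proteins. They included DN15649_c0_g1 and DN47094_c0_g1, in which the filter favoured a difference from 14 h. On the log2(value + 1) scale DN17480_c3_g1 differed most, with means of 2.47 ± 2.84 in quiescent eggs (SD, n = 3) and 10.7 ± 2.90 in 14 h eggs (SD, n = 4), a log2 change of -2.04 ± 0.47 (limma, adjusted p = 0.00381). The ratio of its means was 0.232, and the lowest ratio among the 11 genes was 0.135, in a gene with 3 to 24 reads in a quiescent library. DN16633_c0_g1 changed by -1.80 ± 0.62 (limma, adjusted p = 0.0433; the call was lost in 15 of the 26 fits that left out 1 library) and DN16633_c0_g2 by -1.65 ± 0.47 (limma, adjusted p = 0.0148). Without quiescent A neither this call nor that of DN17480_c3_g1 was kept, and without quiescent C that of DN16633_c0_g2 was lost. DN30880_c0_g1 was not called (-1.41 ± 0.61; limma, adjusted p = 0.115), and quiescent D overlapped with its 14 h values. In 14 genes every quiescent value lay below every 14 h value (51.2% of all genes) and in 2 above (9.79%). The median log2 change was -0.77 for the 25 genes and -0.41 for all genes. These 11 calls depended on the method: edgeR gave 0 (5 at an unadjusted p under 0.05; 1.46% of all genes were called), DESeq2 0 (5 unadjusted; 12.1%) and edgeR with the scaling of the deposited values 4 (19.8%). Median-ratio rescaling gave 2 lower and 1 higher (10.6% and 10.3% of all genes), and quantile normalization 3 lower and 2 higher (8.65% and 10.2%). They came to 3 without quiescent A (10.4% of all genes were called), 5 without quiescent C (9.87%) and 6 without 14 h E (13.8%). Without 42 h D they were 17 lower and 1 higher (32.1% and 8.37%). Within libraries A and B, with 1 quiescent library, 4 were lower (4.68%), and within the others 0 were (2.00%; 11 members had an unadjusted p under 0.05). Without the filter 12 of 49 were lower and 0 higher, against 10.4% and 3.21% of all genes.

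The 12 matches to signalling and scaffold proteins, like the 29 repeat arrays, did not all share 1 course, and 4 of them were tested. The highest mean was at 14 h in 5 of the 12 and at 42 h in 5, against 12 and 13 of the 29 arrays. The lowest was at 7 h in 7 of the 12 and in 15 of the 29. DN5349_c0_g1 matched DAPK1, a calmodulin-regulated kinase that promotes cell death in mammals, but its identifier had an ankyrin field and no kinase field. Quiescent eggs had 1.62, 2.04 and 1.88. The gene had 9.75, 11.4, 14.9, 12.6 and 12.7 at 3 h and 1.16, 0.83, 1.18, 1.09 and 1.27 at 7 h, with later values of 0.804 to 1.30 at 14 h and 0.491 to 0.786 at 24 h. Every 3 h library was thus above every later one, with 42 h D (3.12) above the other 42 h libraries (0.434 to 0.749). At 7 h against 3 h its log2 change was -2.65 ± 0.24, the largest on that scale and the smallest in p of all members in that comparison (limma, adjusted p = 2.55e-09). The ratio of its means was 0.0901, and the lowest ratio among the called members was 0.0335, in a gene with 0 to 11 reads in a 7 h library.

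The other 3 tested genes of this kind were chosen for naming after their values were seen. DN4041_c0_g1 matched Cactus, the inhibitor that holds the transcription factor Dorsal in the cytoplasm of the Drosophila embryo. It had 0.711, 0.618 and 1.09 in quiescent eggs, against 0.199, 0.184, 0.317, 0.201 and 0.180 at 7 h and 1.12, 1.30, 1.69 and 3.34 at 14 h. The quiescent libraries lay between the other 2 groups without overlap. It rose by 1.18 ± 0.19 at 14 h against 7 h (limma, adjusted p = 4.05e-05) and was lower in quiescent than in 14 h eggs (-0.61 ± 0.21; limma, adjusted p = 0.0487). DN47094_c0_g1 matched the zebrafish form of Kidins220, a membrane scaffold of neurotrophin receptors in vertebrates. It had 0.467, 0.70, 1.17 and 1.5 at 14 h against 0.009 to 0.053 at 7 h, without overlap, and rose by 0.90 ± 0.18 (limma, adjusted p = 0.000446). The filter favoured this difference, because the gene would not have passed without its 14 h libraries. DN42836_c0_g1 matched MYPT1, the subunit that directs a phosphatase to myosin, and had 2.17 to 7.92 at 14 h and 0.060 to 0.892 at 7 h (1.68 ± 0.46; limma, adjusted p = 0.00835). At 24 h it had 6.20, 0.628, 0 and 0.351, so that library A alone was at the level of 14 h. None of the 8 untested genes of this kind, with matches to espin, inversin, ankyrin-2 and others, had more than 1.11 in any library.

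**Figure D5:**
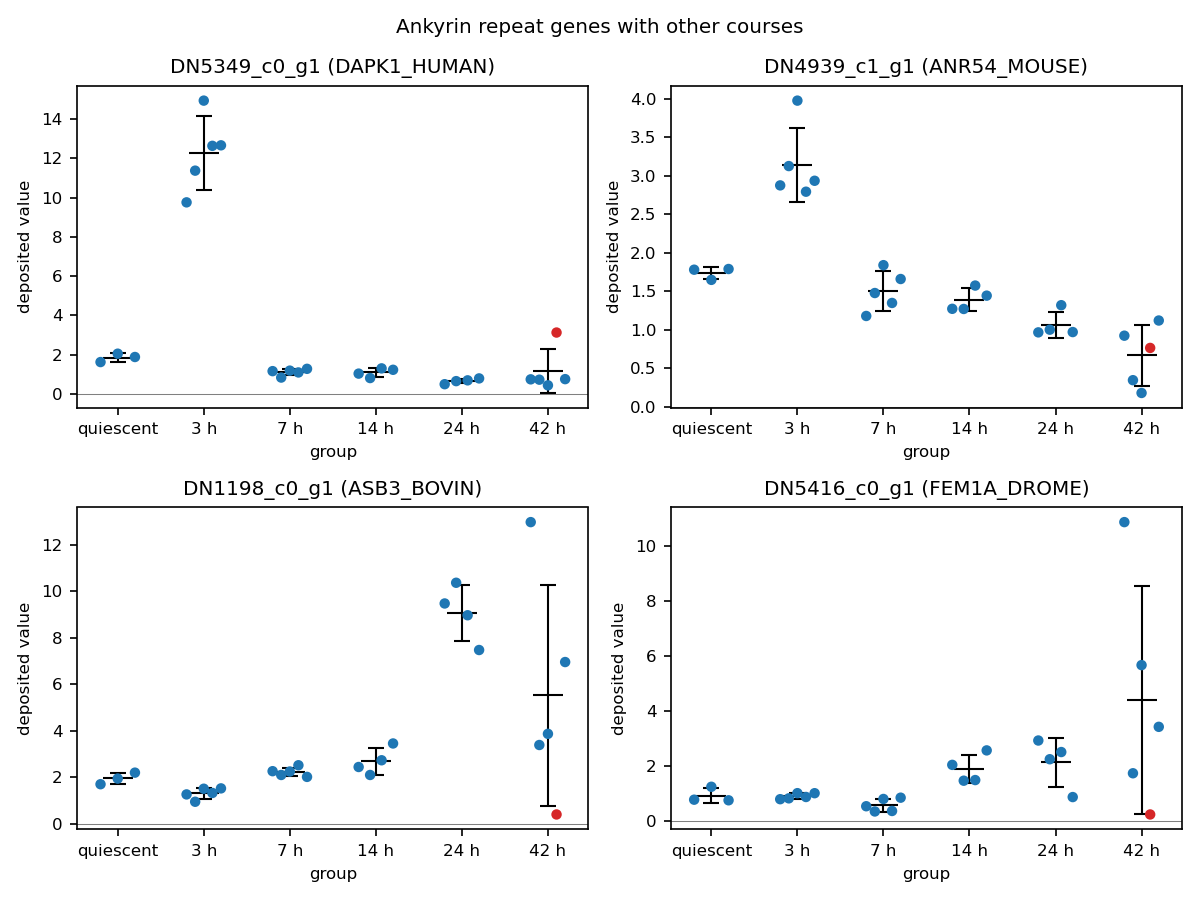
Deposited values by library (points) in the 6 groups, with the mean and SD as bars, of 4 ankyrin repeat genes (a DAPK1 match, an ANR54 array, an ASB3 match and a FEM1A match) whose highest mean was not at 14 h; the 42 h D library is red. DN5349_c0_g1 and DN4939_c1_g1 are highest at 3 h, DN1198_c0_g1 is highest at 24 h and in 42 h A, and DN5416_c0_g1 has its widest spread at 42 h.

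Genes matched to ubiquitin ligases and tankyrases came to 5, of which 3 were tested. DN1198_c0_g1 matched ASB3, which in mammals picks substrates for a cullin ligase through a SOCS box, a domain its identifier did not hold. It had 2.44, 2.10, 2.73 and 3.45 at 14 h, 9.47, 10.4, 8.96 and 7.47 at 24 h, and 13.0, 3.39, 3.87, 0.402 and 6.95 at 42 h. The 24 h libraries lay above all of 14 h, with a log2 change of 1.46 ± 0.41 (limma, adjusted p = 0.018; 0.053 without 14 h B and 0.051 without 24 h B), and inside the range of 42 h. The fall at 42 h against 24 h (-0.98 ± 0.39; limma, adjusted p = 0.0383) was not called without 42 h D (-0.52; limma, adjusted p = 0.0705), nor without 42 h B or C or 24 h A, B or C. Its change at 14 h against 7 h was 0.18 ± 0.39 (limma, adjusted p = 0.753) and turned to a called fall of -1.09 with edgeR (adjusted p = 0.0465), -0.96 with DESeq2 (adjusted p = 0.0205) and -0.70 after median-ratio rescaling (limma, adjusted p = 0.0216). DN5416_c0_g1, named after its values were seen, matched FEM1A, a relative of the substrate receptor Fem-1 of worm sex determination. Its values at 42 h were 10.9, 1.74, 5.67, 0.239 and 3.42 and those at 24 h were 2.93, 2.25, 2.51 and 0.871, which overlapped (0.45 ± 0.40; limma, adjusted p = 0.367). DN45068_c0_g1, named likewise, matched tankyrase-2, which adds ADP-ribose chains to axin and other proteins. It had the only lowest mean at 14 h among the 49 genes, 0.536 ± 0.235 (SD, n = 4), against 1.27 ± 0.426 at 7 h (SD, n = 5), and passed the test in none of the 6 comparisons (limma, lowest adjusted p = 0.182).

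The 2 matches to ANR54, a protein that binds the kinase Lyn in mammals, both had their highest mean at 3 h and were also named after their values were seen. DN4939_c1_g1 had 1.18, 1.47, 1.84, 1.34 and 1.66 at 7 h, against 2.87, 3.12, 3.97, 2.79 and 2.93 at 3 h. The groups did not overlap, and the log2 change was -0.73 ± 0.19 (limma, adjusted p = 0.0088). DN42031_c0_g1 averaged 0.10 ± 0.0287 at 7 h and 0.637 ± 0.188 at 3 h (SD, n = 5 each) and did not pass the filter. The matches to the sensory channels TRP and Painless of Drosophila and TRPA1 of Caenorhabditis elegans stayed in the set because their identifiers had no Ion_trans field. Their highest values were 1.15, 0.259 and 0.116, and none was tested.

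The 24 genes that did not pass the filter had highest values between 0.116 and 2.523. Of these, 14 had their highest mean at 42 h and 6 at 14 h. Closest to the limit, DN13233_c0_g1 had 3 libraries at or above 1 and was tested, and DN25476_c0_g1, DN26536_c0_g1 and DN15649_c2_g1 had 2 and were not.

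Other repeat families gave few genes to set beside the ankyrin repeats. Of 9 Kelch genes 5 were tested, and at 14 h against 7 h none was called (median log2 change 0.21). Of 23 WD40 genes 3 were tested and none was called in that comparison (0.49), and of 16 leucine-rich repeat genes 2 were tested and 1 rose (0.57). At 24 h against 14 h no gene of these 3 lists was called (medians 0.33, 0.41 and -0.28). The 1 tested TPR gene was called in none of the 6 comparisons. Among domains that can stand beside ankyrin repeats, BTB had 5 of 13 genes tested, of which 3 fell at 7 h against 3 h, and F-box had 3 of 9 tested, of which 2 fell. Of 36 protein kinase genes 6 were tested, with 1 rise at 14 h against 7 h and 1 fall at 24 h against 14 h. The 1 tested SAM gene rose at 14 h against 7 h and fell at 24 h against 14 h. No gene of the Arm or HEAT, spectrin, death domain and ZU5 lists was tested, and no gene had a SOCS box field. Among trypsin genes, 35 of 62 were tested: 4 fell at 7 h against 3 h, 21 rose at 14 h against 7 h, 10 fell and 1 rose at 24 h against 14 h, and 22 rose and 1 fell at 42 h against 24 h. In quiescent eggs 2 were higher than at 7 h and 14 were lower than at 14 h. Of 44 muscle genes 35 were tested, and at 24 h against 14 h 1 rose and 4 fell (median log2 change 0.88). Of 48 cuticle genes 37 were tested, and in that comparison 0 rose and 3 fell (0.30, against -0.56 for trypsin genes).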

How the data were processed

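Genes of an assembly made without a genome were given by the authors in 2 tables, after selection for differential expression, as normalized signal in each of the 26 libraries. Tools named in the submitters' processing notes are bcl2fastq and edgeR. For the aligner, the counting and the scaling, the sources used here say nothing. The deposited signal values are whole reads times 1 number per library (100% of values up to 2000 reads were whole within 0.1), so reads were recovered. The tables were joined, with identical values in shared genes. Genes reaching a value of 1 in 3 or more libraries (5258 of 9590) were tested on log2(value + 1) with limma 3.58.1 (R 4.3.3; eBayes with trend and robust), 1 term for 6 groups over 26 libraries, and Benjamini-Hochberg adjustment over all genes tested. The fit was tested on simulated data. Alternatives were edgeR 4.0.16 and DESeq2 1.42.0 on recovered reads, other pseudocounts, filters, scalings and sets of libraries. Fits within libraries A and B, within C, D and E, and edgeR with the deposited scaling were added after seeing the data. The members and lists were chosen with earlier results of these data known. Genes named were the 3 called members with the largest log2 change in each direction of each comparison and the 6 with the highest mean, and others where said.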

Additional observations from a re-analysis of the deposited data

Results flagged for a closer look

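In 6 of 45 groups of 4 or 5 libraries, the highest or lowest library lay far from the others. For independent and normally distributed values, chance gives about 1 such group in 20. That rate need not hold here, because the deposited values were used without a log scale and the genes and their sum are not independent. Of the 6 groups, 3 concern 42 h D, the library that stood apart from its group over all genes. There DN30880_c0_g1 had 38.0 (2.83 to 7.86 in the other 42 h libraries), DN16633_c0_g2 had 6.45 (0.415 to 1.83) and DN5349_c0_g1 had 3.12 (0.434 to 0.749). DN30880_c0_g1 also had 4.86 in 7 h C, against 0.847 to 1.99 in the other 7 h libraries. DN11318_c0_g1 had 10.9 in 14 h E, where the other 3 libraries had 3.24 to 4.01. The sum over the 49 genes was 52.0 in 3 h A and 65.7 to 66.4 in the other 4 libraries of that stage.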

How the results depend on the processing

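The 6 counts of called members were refitted under the alternatives. For the genes named by rule, 1694 of 1862 single values stayed on their side of the threshold, and the called ones among them kept their direction. That share is raised by values not called at first and by the 26 fits that left out only 1 library. Calls of these genes lost came to 9 with edgeR, 7 with DESeq2, 9 with median-ratio rescaling, 8 with quantile normalization and 15 within libraries C, D and E. Another 121 were no longer called, 44 were newly called with the same sign and 3 were newly called with the opposite sign. A change of sign between 2 values that were both not called was not counted. DESeq2 gave no adjusted p for DN5349_c0_g1. The 3 called with the opposite sign were those of DN1198_c0_g1 at 14 h against 7 h (not called at first). Each was a fall: -1.09 with edgeR, -0.96 with DESeq2 and -0.70 with median-ratio rescaling. The cause was not tested. For 7 h against 3 h, in place of 11 members (584 of all 5258 genes), median-ratio rescaling gave 18 (1054) and the spread of the 2 groups alone 21 (1773). Libraries A and B gave 7 and libraries C, D and E gave 2, where 8.84% and 4.60% of all genes fell. For 14 h against 7 h and 24 h against 14 h, libraries A and B alone gave 11 and 8 in place of 17 and 15. For 42 h against 24 h, in place of 17, the fit without a filter gave 27 (of 49), median-ratio rescaling 6, quantile normalization 5, the spread of the 2 groups 0, and the 2 sets of libraries 7 and 1. For quiescent eggs against 7 h, in place of 1 (64 of all 5258 genes), a pseudocount of 0.1 gave 3 (74) and DESeq2 4 (469). Under edgeR with the deposited scaling 5 were called (232), and with the spread of the 2 groups 7 (785). No member was called without the filter (57 of 9590 genes), by edgeR (243), after median-ratio rescaling (119) or quantile normalization (92), or within libraries C, D and E (0). For quiescent eggs against 14 h, in place of 11, edgeR and DESeq2 gave 0, edgeR with the deposited scaling 4, median-ratio rescaling 3, quantile normalization 5, and the sets of libraries 4 and 0. Fewer libraries entered the fits within the sets (1 quiescent library in A and B); other causes were not tested. Leaving out each library in turn gave 10 to 15 members for 7 h against 3 h, 16 to 19 for 14 h against 7 h, 14 to 17 for 24 h against 14 h, 12 to 18 for 42 h against 24 h, 0 to 3 for quiescent against 7 h and 3 to 18 for quiescent against 14 h. Without 42 h D the members called in these 6 comparisons were 15, 19, 17, 17, 3 and 18. Beside them 827, 2420, 1513, 3588, 286 and 2128 of 5255 genes were called. Deviations from the group means had a median r of 0.078 over 56 same-lettered pairs, 24 of them over 0.1. Over 224 pairs of different letters the median was -0.037, with 66 over 0.1. Whether the letters pair samples cannot be settled from these values. A replicate block gave 11, 16, 15 and 18 members between successive stages (584, 1031, 616 and 2571 of all 5258 genes). It gave 0 for quiescent against 7 h (45 of all genes) and 8 for quiescent against 14 h (551). The filter left 24 genes of low value out of the main fit, and depth limits those with few reads.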
